A study of Macaca mulatta with 6 samples.

Results

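Receptors for the transmitters glutamate, gamma-aminobutyric acid (GABA) and glycine were examined subunit by subunit in the retinas of rhesus macaques. The list held 36 subunit genes, 20 of glutamate receptors and 16 of GABA and glycine receptors. A gene was taken as measured when the annotation of the array gave a probe set to its symbol alone. This was so for 18 of the 36 genes, out of 14132 genes named on the array: 7 of glutamate receptors and 11 of GABA and glycine receptors. Together they had 33 probe sets, 8 genes having more than 1, and a gene with several was described by the one of highest mean signal over the 6 arrays, its brightest probe set. The subunits GRIA2, GRIA3, GRIN2A, GRIN2B, GRIN2D, GRIK3, GRIK4, GRIK5, GRM2, GRM3, GRM4, GRM5, GRM8, GABRA5, GABRB2, GABRG1, GABBR1 and GABBR2 were not analysed here. The 3 animals were adult males and each gave both retinas. The treated retina lay on the side where the intraorbital optic nerve had received 15 Gy by gamma knife surgery, a focused gamma irradiation, and the control retina was that of the untreated side of the same animal. Eyes were taken 24 h later, and RNA of the temporal retina, dissected without pigment epithelium, was hybridized to 1 array per retina, 6 arrays in all. As a model the control has a limit, since it was the other eye of an irradiated animal and its eyeball also received a small dose. The eyeball of the treated side was itself irradiated too, at a low dose that was larger than on the control side. Effects of that dose on the retina and effects of the nerve injury cannot be told apart in this design. Replicate number is taken to stand for the animal below, which the labels do not state.

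In the retina, photoreceptors and bipolar cells release glutamate, while amacrine and horizontal cells release GABA or glycine. Ionotropic glutamate receptors (AMPA, NMDA and kainate types) are cation channels that excite the cell, and metabotropic glutamate receptors act through G proteins. GABA-A receptors, among them the rho type of bipolar cell terminals, and glycine receptors are chloride channels that inhibit most mature neurons. Each channel is built of several subunits, so the subunits present set its kinetics, its permeability and its drug sensitivity. Retinal ganglion cells, whose axons form the optic nerve, carry receptors of all these kinds.

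The values are log2 of the MAS5 signal. Their median per array lay between 6.44 and 7.03, and between 22.6% and 29.7% of probe sets were under a log2 signal of 5, where the values scatter widely. The treated retina of animal 2 had both the lowest median, 6.44, and the largest share under 5, 29.7%. Both retinas of animal 1 had the highest medians, 7.03 in control and 6.98 in treated, with 22.6% under 5 in each. The tissue bore its markers: the 6 rod genes measured of 9 listed stood at a log2 signal of at least 13.62 on every array. Ganglion cell markers were above 0 in the treated minus control difference for 7 of 7 measured genes, with a median of 0.22, and 4 of them were higher at an unadjusted p under 0.05. Their summed log2 signal lay between 14.22 and 14.53 in control and between 14.44 and 14.77 in treated retinas, and no marker was at 0. Of the 5 horizontal cell markers measured, 4 were below 0 and 2 were lower at an unadjusted p under 0.05, with sums from 12.79 to 12.97 in control and from 12.65 to 12.90 in treated retinas. Astrocyte markers were above 0 for 6 of 6 measured genes, with sums from 12.15 to 13.07 in control and from 13.11 to 14.55 in treated retinas. Only 1 of the 6 was higher at an unadjusted p under 0.05. This was GFAP, the filament protein of astrocytes and stressed Müller cells, the 1 marker on these lists called by limma (2.14, adjusted p = 0.0303). The others were PAX2 (1.66, at a mean log2 signal of 3.94), AGT (0.50), S100B (0.17), ALDH1L1 (0.12) and SOX2 (0.031). Of the 10 microglia markers 6 were above 0 and 4 below, and 3 of those below were lower in all 3 pairs. At an unadjusted p under 0.05, 4 of 10 were higher and 0 lower. Their sums ran from 11.06 to 11.28 in control and from 11.26 to 11.52 in treated retinas. The rod genes were all below 0 and 2 of 6 were lower at that level, with sums from 17.34 to 17.61 in control and from 17.14 to 17.51 in treated retinas. Among the further lists, 1 of 7 cone, 1 of 8 amacrine cell and 1 of 5 pigment epithelium markers were lower at that level. The last was RLBP1 (−0.45), which is also on the Müller cell list and is counted there too. Of the 6 bipolar cell and 3 oligodendrocyte markers 0 passed, and the Müller cell markers are given below. Beside these counts, 6.74% of all probe sets and 8.02% of the brightest probe sets of named genes passed in either direction. Of those 14132 brightest probe sets 7838 were above 0. The part of these cell types in the receptor values was not tested. In a piece of whole retina, fewer cells of a type and less RNA per cell cannot be told apart.

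No receptor subunit passed the test between treated and control retinas. By limma, paired by animal and adjusted for all 52024 probe sets after Benjamini and Hochberg, 0 of the 18 genes were called at an adjusted p under 0.05, where 0.111% of all probe sets were. At an unadjusted p under 0.05 limma again gave 0 of 18, beside 6.74% of all probe sets and 8.02% of the brightest probe sets of named genes. The methods' t-test gave 0 of 18 at that level, beside 5.56% of all probe sets. The smallest p among the members was 0.0842 (adjusted p = 0.752 from limma). In the difference 5 genes were above 0 and 13 below, with a median of −0.046, beside −0.038 over all probe sets and 0.032 over the brightest probe sets of named genes. With each array centred on its median, 6 of the 18 changed sign. By the brightest probe set, the treated and control values overlapped for all 18 genes, while they did not for 6.63% of all probe sets.

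**Figure D1:**
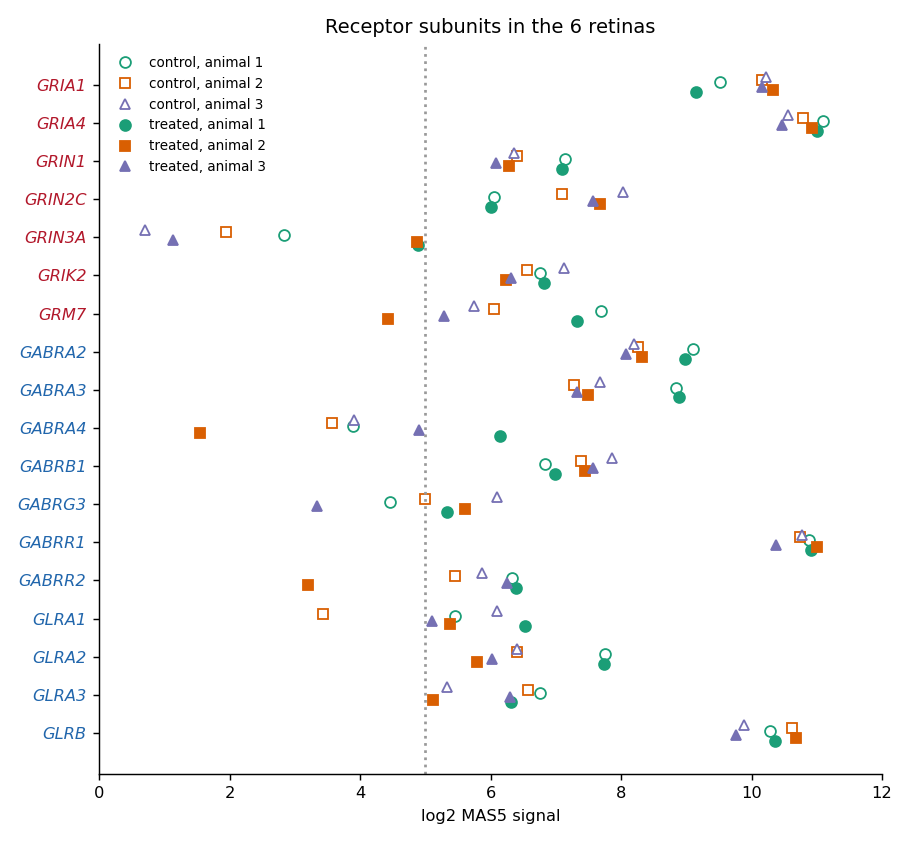
Log2 MAS5 signal (x axis) of the brightest probe set of each of the 18 subunit genes (y axis, glutamate receptors in red and GABA or glycine receptors in blue) in the 6 retinas. Open symbols are control and filled symbols treated retinas, the symbol shape gives the animal, and the dotted line marks a log2 signal of 5. Treated and control values overlap in every row, and for GABRA3 and GLRA2 both retinas of animal 1 stand apart from the other 4.

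The standard errors of these differences depended on the signal, in part by construction, since limma set its prior variance to follow the mean signal. For the 5 genes with a mean log2 signal of at least 8 (GRIA4, GABRR1, GLRB, GRIA1 and GABRA2) the standard errors lay between 0.0996 and 0.153 and the differences between −0.090 and 0.00032. Together with GABRA3 they made up the 6 genes whose 95% interval from limma lay wholly within a 1.5-fold change in either direction. By the brightest probe set, a larger change at 24 h lies outside the limma interval for these 6, while for the other 12 it does not. The intervals are not adjusted for the number of genes, and they rest on that prior variance. Intervals from the 3 pairs alone, as in the methods' t-test, were not computed and could be wider. For GABRR1 the pair differences ran from −0.39 to 0.25. Some dimmer probe sets of GRIA1, GRIA4, GABRA2 and GLRB had intervals that reached past that fold. For GLRB these ran from −0.034 to 0.89 and from −0.78 to 0.41 on the log2 scale. Below a log2 signal of 8 the standard errors ran from 0.203 to 0.973.

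**Figure D2:**
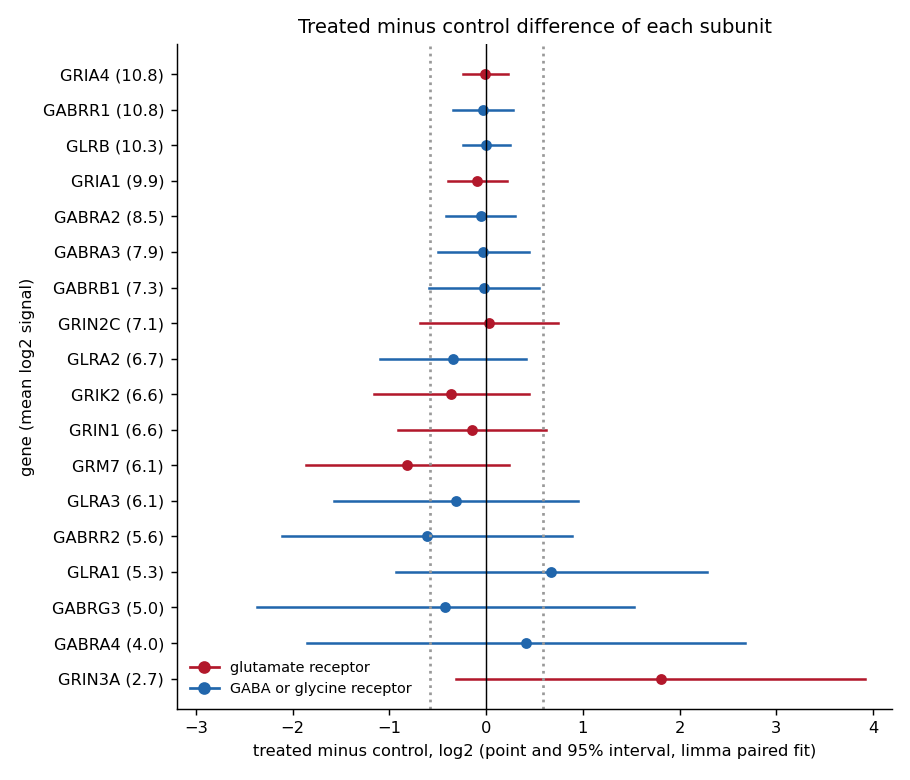
Treated minus control difference on the log2 scale (x axis) of the 18 subunit genes, ordered by mean log2 signal, which stands in brackets after the gene. Points are the estimates of the paired limma fit over 3 animals, bars are 95% intervals, and dotted lines mark a 1.5-fold change. All 18 intervals include 0, and they broadly widen from GRIA4 at the top to GRIN3A at the bottom.

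The AMPA receptors, which carry most of the fast excitation in the inner retina, were represented by 2 of 4 subunits. GRIA1 stood at log2 signals of 9.52, 10.17 and 10.23 in the control retinas of animals 1 to 3 and at 9.15, 10.33 and 10.16 in the treated retinas. The retinas of animal 1 were the lowest on both sides. With 1 of 3 pairs higher, its difference was −0.090 (SE 0.13, 95% interval −0.39 to 0.21, adjusted p = 0.898 from limma). GRIA4, a subunit of rapidly closing channels, stood at 11.10, 10.78 and 10.56 in control and at 11.01, 10.93 and 10.47 in treated retinas. The groups overlapped almost fully, and the difference was −0.0091 (SE 0.0996, adjusted p = 0.989), a fold of 0.994 with an interval of 0.846 to 1.17. The dimmer probe sets of both genes gave 0.0016 and −0.13.

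NMDA receptors need GRIN1, the subunit that binds the co-agonist glycine, joined with GRIN2 subunits that bind glutamate. GRIN1 stood at 7.14, 6.40 and 6.36 in control and at 7.09, 6.28 and 6.09 in treated retinas. It was lower in all 3 treated retinas by small amounts, and the difference of −0.15 (SE 0.33, 95% interval −0.91 to 0.62, adjusted p = 0.941 from limma) did not pass the test. GRIN2C, a subunit of slow channels with weak magnesium block, gave a difference of 0.029 (SE 0.31, adjusted p = 0.989), while its other probe sets, at mean log2 signals of 3.69 and 3.02, gave 1.02 and 0.13. GRIN3A, a subunit that lowers the calcium permeability of the channel, had the largest difference of all members. It stood at 2.84, 1.95 and 0.70 in control and at 4.89, 4.88 and 1.14 in treated retinas, all of them under a log2 signal of 5. It was higher in 3 of 3 treated retinas than in the control retina of the same animal, although the treated retina of animal 3 lay below the control retinas of animals 1 and 2. The difference was 1.80 (SE 0.91, 95% interval −0.31 to 3.92, adjusted p = 0.752). After an offset of 32 was added to the linear signals it was 0.48 (adjusted p = 0.734).

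Of the kainate receptors 1 of 4 subunits was measured, and of the metabotropic receptors 1 of 6. GRIK2, a pore-forming kainate subunit, stood at 6.76, 6.56 and 7.13 in control and at 6.82, 6.24 and 6.31 in treated retinas. The groups overlapped, with a difference of −0.36 (SE 0.34, adjusted p = 0.834 from limma), and 1 of 3 pairs was higher. The second probe set gave −0.59. GRM7, a presynaptic receptor of low glutamate affinity that dampens release, stood at 7.69, 6.05 and 5.75 in control and at 7.33, 4.43 and 5.29 in treated retinas. It was lower in all 3 treated retinas, and the groups still overlapped because both retinas of animal 1 were the highest. The difference of −0.82 (SE 0.45, 95% interval −1.86 to 0.23, adjusted p = 0.753) did not pass the test. It was −0.41 without animal 2.

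GABA-A receptors are pentamers of alpha, beta and a further subunit, commonly gamma. Their alpha subunits GABRA2 and GABRA3 gave differences of −0.058 (SE 0.15, adjusted p = 0.949 from limma) and −0.029 (SE 0.20, adjusted p = 0.983). The interval of GABRA2 ran from 0.750 to 1.23 as a fold, and that of GABRA3 from 0.706 to 1.36. A second probe set of GABRA2, with a mean log2 signal of 2.92, gave −0.997 with no common direction in the pairs (−3.00, 3.05 and −3.04). GABRB1, which carries the beta part of the GABA binding site, gave −0.022 by its brightest probe set and 0.022 and 1.25 by the others, the last at a mean log2 signal of 2.40. GABRA4 and GABRG3, with mean log2 signals of 3.99 and 4.97, gave 0.41 (SE 0.97) and −0.42 (SE 0.84). GABRG3, a gamma subunit, stood at 4.47, 4.99 and 6.09 in control and at 5.33, 5.61 and 3.34 in treated retinas. It was higher in the treated retinas of animals 1 and 2 and lower in that of animal 3, and its difference was 0.74 without animal 3 (adjusted p = 0.830).

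Both rho subunits, which form the slow GABA receptors of bipolar cell terminals, were measured. GABRR1 stood at 10.88, 10.74 and 10.77 in control and at 10.91, 11.00 and 10.38 in treated retinas. The control retinas were close together (SD 0.070) and the treated ones spread on both sides of them (SD 0.33). The difference was −0.034 (SE 0.13, adjusted p = 0.969 from limma), a fold of 0.977 with an interval of 0.787 to 1.21. GABRR2 stood at 6.33, 5.46 and 5.87 in control and at 6.38, 3.21 and 6.25 in treated retinas. The treated retina of animal 2 was the low one, and its array also had the lowest median signal of the 6. The other pairs were within 0.38 of each other. The difference was −0.61 (SE 0.64, adjusted p = 0.852) and became 0.21 without animal 2 (adjusted p = 0.980).

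All 4 listed glycine receptor genes were measured. GLRB, the beta subunit that ties the receptor to the scaffold protein gephyrin, stood at 10.29, 10.63 and 9.89 in control and at 10.36, 10.68 and 9.76 in treated retinas. Each treated retina lay within 0.13 of its control, and the difference was 0.00032 (SE 0.10, 95% interval −0.24 to 0.24, adjusted p = 0.999 from limma). Its other 4 probe sets gave differences from −0.18 to 0.43. The alpha subunits bind glycine. GLRA2 stood at 7.75, 6.40 and 6.41 in control and at 7.75, 5.79 and 6.02 in treated retinas. It was lower in all 3 treated retinas, by 0.0069 in animal 1, and the difference was −0.34 (SE 0.32, adjusted p = 0.834). GLRA1, the adult spinal alpha subunit, gave 0.67 (SE 0.69, adjusted p = 0.846) with pairs of both signs.

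GLRA3 was the member whose probe sets disagreed most. Its brightest probe set, with a mean log2 signal of 6.07, gave −0.31 (SE 0.54, adjusted p = 0.917 from limma) with differences of −0.44, −1.46 and 0.96 in animals 1 to 3. The dimmest of its 4 probe sets stood at 5.45, 5.63 and 5.20 in control and at 2.55, 4.96 and 1.76 in treated retinas. By this probe set the treated retinas were all below the control retinas, and the difference was −2.34 (SE 0.82, adjusted p = 0.716 from limma). It was the 1 value at an unadjusted p under 0.05 among the 33 probe sets, beside 6.74% of all probe sets. The groups did not overlap for 2 of the 33, beside 6.63% of all probe sets. The other was the GABRB1 probe set with a mean log2 signal of 2.40. The remaining probe sets gave 0.071 and 0.29. The dimmest one shares its design name with the probe set that gave 0.29, and they differ in sign.

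The question of excitatory against inhibitory receptors was put to the medians of both classes. The 7 glutamate receptor genes had a median difference of −0.090, and 2 were above 0 and 5 below. The 11 GABA and glycine receptor genes had a median of −0.034, with 3 above 0 and 8 below. Within animals 1 to 3 the glutamate medians were −0.044, 0.15 and −0.28, and the GABA and glycine medians were 0.051, 0.064 and −0.29. Glutamate minus GABA and glycine was therefore −0.095, 0.082 and 0.013 in the 3 animals and −0.056 in the fit. The sign differed between animals, and the median of each class was lowest in animal 3. With each array centred on its median both medians lay above 0, at 0.0070 and 0.063. Without animal 1 the contrast of the medians was 0.14, and it was −0.15 without animal 2 and −0.19 without animal 3.

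**Figure D3:**
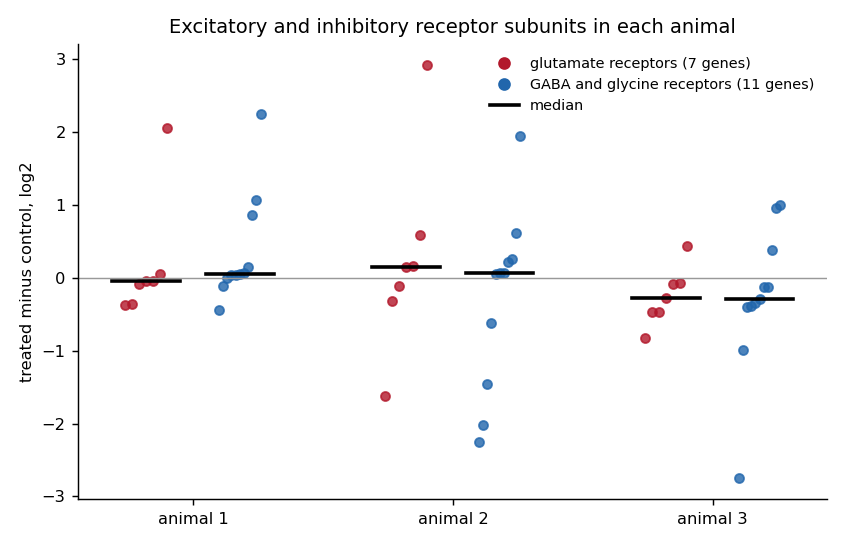
Treated minus control difference on the log2 scale (y axis) of each subunit gene within each of the 3 animals (x axis). Red points are the 7 glutamate receptor genes, blue points the 11 GABA and glycine receptor genes, and black bars their medians. The medians of both classes lie near each other in every animal and are lowest in animal 3, at −0.28 and −0.29.

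The subunits were also compared between animals. For 12 of 18 genes (66.7%) the range between the means of the 3 animals exceeded the largest difference within a pair, beside 54.1% of all named genes, and for the other 6 it did not. A moderated F-test of the animal in the same limma fit called 6 of 18 genes at an adjusted p under 0.05, or 33.3%, beside 13.4% of all probe sets and 16.3% of the brightest probe sets of named genes. Before adjustment 8 of 18 passed, beside 28.9% of all probe sets and 34% of the brightest probe sets of named genes. Calls were more frequent where the signal was high. Of the 8 members with a mean log2 signal of at least 7, 5 were called, beside 23.9% of named genes at that level. Of the 10 members below it, 1 was called, beside 1.92%. The count rests on the variance model: when the prior variance was not allowed to follow the signal, 0 of 18 members and 0 of all 52024 probe sets were called. Without animal 1, limma called 0 of 18 and 0.154% of all probe sets, and without animal 3 GLRB (adjusted p = 0.158) and GRIN2C (adjusted p = 0.0693) were lost. The animal cannot be told apart from the handling of its tissue and arrays.

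GABRA3 showed the smallest p between animals. Its log2 signal was 8.84 and 8.88 in the control and treated retina of animal 1, 7.27 and 7.49 in animal 2, and 7.68 and 7.33 in animal 3 (adjusted p = 0.0136 from limma). Both retinas of animal 1 were above the other 4, by more than 1 on the log2 scale. The arrays of animal 1 also had the highest medians over all probe sets, 7.03 in control and 6.98 in treated. GLRA2 and GABRA2 were likewise highest in both retinas of animal 1 (adjusted p = 0.0467 and 0.0322), and both lost the call after quantile normalization (0.0852 and 0.0605) and after centring (0.0905 and 0.217). GRIA1 and GRIN2C were lowest there (adjusted p = 0.0154 and 0.0379). GRIN2C had 6.05 and 6.01 in animal 1, 7.09 and 7.68 in animal 2, and 8.03 and 7.56 in animal 3. GLRB was highest in animal 2 and lowest in animal 3 (adjusted p = 0.0138). So among the 6 called genes animal 1 was highest for 3, lowest for 2 and between the others for 1. Of the ganglion cell markers 3 of 7 were called between animals, with list means of 11.31, 11.26 and 10.84 in animals 1 to 3. Bipolar cell markers had 0 of 6 called by limma at an adjusted p under 0.05 and 3 of 6 at an unadjusted one. Amacrine cell markers had 1 of 8 called, with list means of 10.15, 9.57 and 9.92. Müller cell markers had 4 of 8 called, with list means of 12.34, 12.64 and 12.48, and the remaining marker lists had 1 of 6 (rods), 2 of 7 (cones), 1 of 5 (horizontal cells), 2 of 6 (astrocytes), 0 of 10 (microglia), 1 of 5 (pigment epithelium) and 0 of 3 (oligodendrocytes). The pigment epithelium gene called was RLBP1, which is also among the Müller cell genes called. Genes of glutamate handling had 4 of 10 called and those of GABA and glycine handling 3 of 11. The part of cell composition in the differences between animals was not tested.

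**Figure D4:**
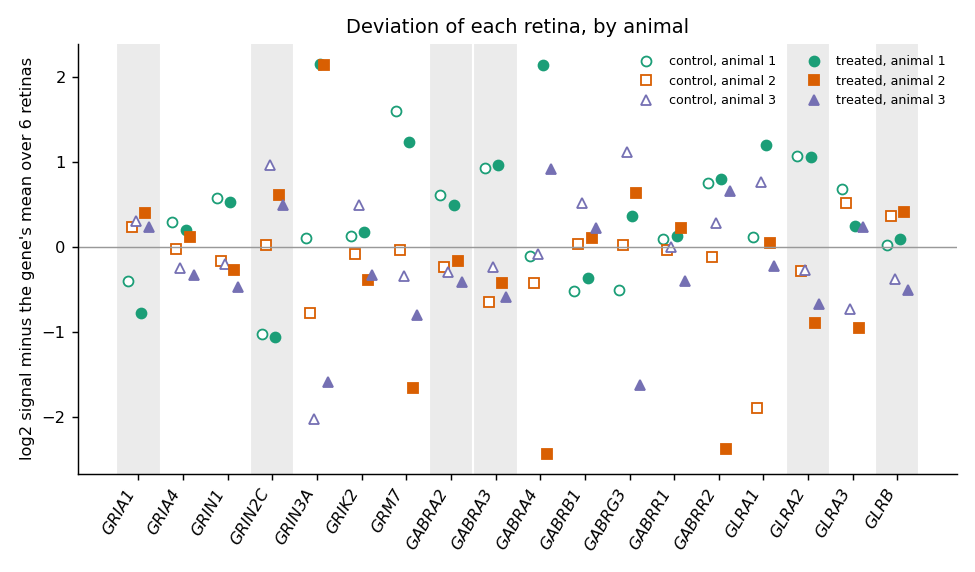
Log2 signal of each retina minus the mean of the gene over all 6 retinas (y axis) for the 18 subunit genes (x axis). Symbol shape and color give the animal, open symbols are control and filled symbols treated retinas, and grey bands mark the 6 genes called between animals at an adjusted p under 0.05. Within the grey bands animal 1 is highest for GABRA2, GABRA3 and GLRA2 and lowest for GRIA1 and GRIN2C. Its symbols there lie furthest apart for GRIA1, with a treated minus control difference of −0.37.

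Probe sets of the same gene did not always order the animals alike. For GRIA1, the brightest probe set averaged 9.34, 10.25 and 10.20 in animals 1 to 3, while the other averaged 7.61, 6.59 and 6.65. Animal 1 was thus 0.89 lower than the mean of the other animals by the first (−0.89) and 0.99 higher by the second, of which only the first was called (adjusted p = 0.0154 and 0.164 from limma). For GLRB the brightest probe set ranked animal 2 first, whereas its other 4 probe sets ranked animal 1 first and animal 3 last. One of these 4 was called too (adjusted p = 0.00502), with animal means of 10.37, 9.47 and 9.15. Of the 6 genes called, GABRA3 and GLRA2, each with a single probe set, were called by all their probe sets. When all probe sets of a gene were averaged, 4 of 18 genes were called between animals, and GRIA1 was not among them (adjusted p = 0.977).

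Genes that work with these receptors were taken from general knowledge in 5 lists, of which 48 of 80 genes were measured. By limma 0 of 48 passed at an adjusted p under 0.05, while 5 did so before adjustment, 2 of them higher and 3 lower in treated retinas. That share of the 48 genes stands at 10.4%, beside 6.74% of all probe sets and 8.02% of the brightest probe sets of named genes. In the handling of glutamate, 1 of 10 measured genes was higher and 2 were lower at an unadjusted p under 0.05. SLC1A3, the glutamate transporter GLAST of Müller cells, stood at 12.66, 13.11 and 12.89 in control and at 13.43, 13.61 and 13.35 in treated retinas. The groups did not overlap, all 3 pairs were higher, and the difference was 0.58 (SE 0.098, adjusted p = 0.164 from limma). Its second probe set gave 0.44. GLUL, the glutamine synthetase of Müller cells, stood at 14.72, 14.88 and 15.06 in control and at 14.31, 14.67 and 14.84 in treated retinas. It was lower in 3 of 3 pairs while the groups overlapped, with a difference of −0.28 (SE 0.099, adjusted p = 0.716), and its second brightest probe set gave −0.76. SLC1A2, the transporter GLT-1, gave −0.45 (SE 0.15, adjusted p = 0.707), of which −0.49 came in animal 1, −0.85 in animal 2 and −0.015 in animal 3. The Müller cell marker list, which includes both GLUL and SLC1A3, had 2 genes higher and 3 lower of 8 at an unadjusted p under 0.05, with summed log2 signals from 16.42 to 16.79 in control and from 16.34 to 16.76 in treated retinas.

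On the inhibitory side, GABARAPL1, a relative of the GABA-A receptor trafficking protein GABARAP and itself a protein of autophagy, stood at 10.39, 10.52 and 10.18 in control and at 10.86, 11.00 and 10.61 in treated retinas. The groups did not overlap, every treated retina was above its control by 0.43 to 0.48, and the difference was 0.46 (SE 0.094, adjusted p = 0.338 from limma). By limma it was the 1 of 7 measured partners of inhibitory receptors at an unadjusted p under 0.05, while GABARAP itself stood at 0.21. SLC12A5, the chloride exporter KCC2, gave −0.19 and was lower in all 3 pairs (−0.23, −0.15 and −0.20). Its unadjusted p was 0.063 from limma and 0.015 by the methods' t-test (adjusted p = 0.879 by that t-test). GAD2, an enzyme of GABA synthesis, gave −0.62 (SE 0.26, adjusted p = 0.736), of which −1.54 came in animal 2 and −0.025 in animal 3, and its other probe set gave −0.29. SHMT2, an enzyme that interconverts serine and glycine, stood at 0.35, and AMT, of the glycine cleavage system, at 0.15. Of the 11 measured genes of GABA and glycine handling, 0 were higher and 1 was lower at that level. By their brightest probe sets, 0 of the 13 measured partners of glutamate receptors were called by limma at either level. The largest statistics were those of HOMER3 (0.86), GRIP1 (−0.45) and SHANK2 (0.27). A dimmer probe set of DLG1 gave −0.60 (unadjusted p = 0.028 and adjusted p = 0.724 from limma), while its brightest gave −0.13. Of the dimmer probe sets of HOMER3, 1 gave −0.28 and the other 1.33, and the dimmer probe set of GRIP1 gave 1.76. Of the 7 further receptor subunits measured, 6 were above 0 and 0 passed at either level, with GRID1 at 0.53, GRIK1 at 0.17 and GRIN3B at 0.42.

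**Figure D5:**
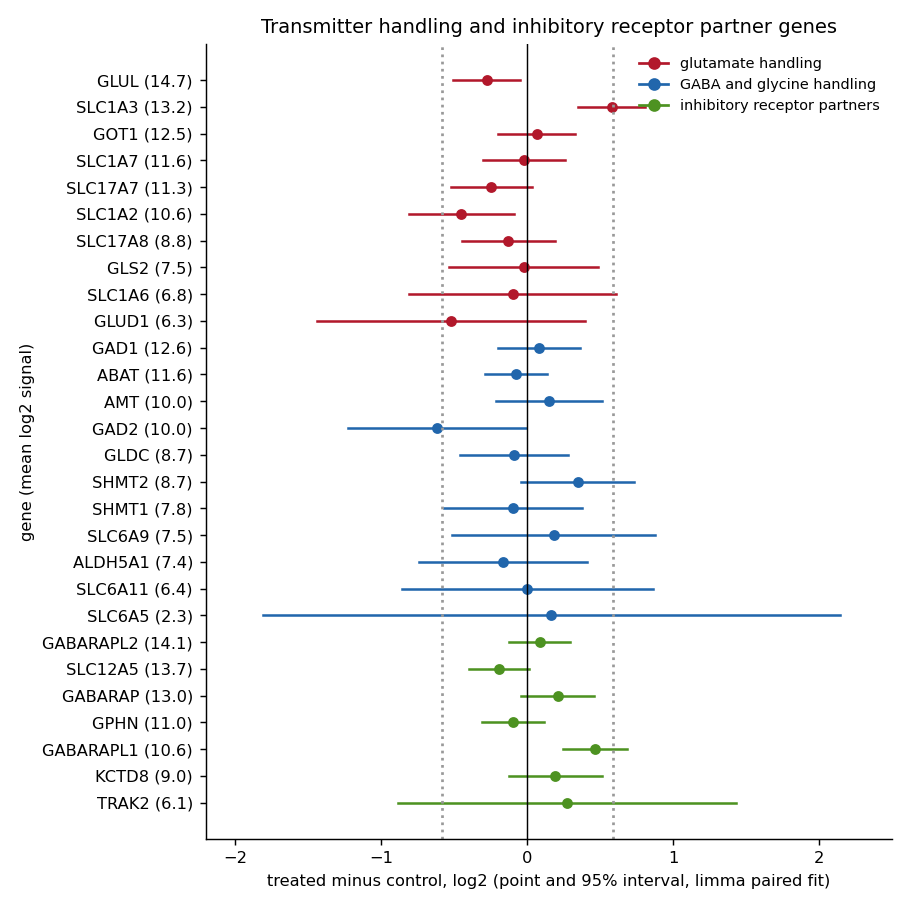
Treated minus control difference on the log2 scale (x axis) of genes that handle glutamate (red), that handle GABA and glycine (blue) and that partner inhibitory receptors (green), each list ordered by mean log2 signal, which stands in brackets. Points are estimates of the paired limma fit over 3 animals, bars are unadjusted 95% intervals and dotted lines mark a 1.5-fold change. SLC1A3 at 0.58 and GABARAPL1 at 0.46 lie to the right of 0, and GLUL at −0.28, SLC1A2 at −0.45 and GAD2 at −0.62 to the left.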

How the data were processed

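Treated and control retinas of 3 rhesus macaques were hybridized to 6 Affymetrix Rhesus Macaque Genome Arrays, which have 1 color. The authors deposited log2 values of MAS5 signals, computed in the GeneSpring software, which scales each array to a common mean (2% trimmed means of 505.3 to 505.8). Precision is bounded by how many arrays there were.

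In R 4.3.3, limma 3.58.1 fitted the difference for each of 52024 probe sets (eBayes with trend, replicate number as a block, no filter), and animals were compared by the F-test of that block. That both retinas of an animal share a number was inferred, since the labels give replicate numbers only. Deviations of arrays with the same number correlated at 0.137 to 0.357, and those of different numbers at −0.243 to 0.104. The link was clear for number 1 (0.357) and weak for numbers 2 (0.137) and 3 (0.161). Treated 2 correlated with control 3 at 0.104. Gene names came from the annotation of the array, with symbols renewed where their identifiers were in a table of assembly T2T-MMU8v2.0 (98.6% of probe sets with 1 symbol). Genome coordinates and sequences were not used here. The scripts were tested on simulated data. Figures were drawn with matplotlib 3.10.9. The alternatives were no pairing, the methods' t-test, no variance trend, quantile or median scaling, a filter, an offset, averaged probe sets and each animal left out.

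The members, gene lists and tests were chosen with earlier results of these data known. Each measured member was named, with values per retina for the member with the largest statistic in each receptor type and those with the smallest p between animals, and up to 3 genes of each related list. Full values of the remaining members and genes were chosen after they were seen.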

Additional observations from a re-analysis of the deposited data

How the results depend on the processing

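Treated and control retinas were told apart for 0 of 18 subunits at an adjusted p under 0.05 under every alternative run. This held without the replicate block, where the pairing by animal was dropped and 0 of 18 were called (0 before adjustment too), and by the methods' t-test. Before adjustment 1 member, GRIN3A, passed limma when the variance prior had no trend, beside 2889 of all 52024 probe sets. With 1 animal left out the count ranged from 0 to 1 (GRIN3A without animal 3), beside 2210 to 4868 of all probe sets. Between animals, 0 members were called without the trend, beside 0 of all probe sets. With 1 animal left out 0 to 8 members were called, beside 0.154% to 23.8% of all probe sets. Before adjustment the count was 5 with all probe sets of a gene averaged, and ranged from 1 to 11 with 1 animal left out. The shares of all probe sets were not computed for these counts, and in the main fit the share was 28.9%. The glutamate minus GABA and glycine contrast of medians ranged from −0.19 to 0.14 with 1 animal left out. The cause of these changes was not tested.

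Small differences changed sign. Centring each array, which shifted the median of all probe sets by 0.097, gave GRIA1 0.0070, GRIA4 0.088, GABRA2 0.039, GABRA3 0.068, GABRB1 0.075 and GABRR1 0.063. Quantile normalization gave GABRA3 0.031, GABRB1 0.046 and GLRB −0.015, and averaging probe sets gave GABRB1 0.42. With 1 animal left out the log2 differences ranged from −0.22 to 0.050 for GRIA1, −0.086 to 0.032 for GRIA4, −0.25 to 0.28 for GRIN2C, −0.15 to 0.13 for GABRA3, −0.51 to 1.63 for GABRA4, −0.11 to 0.11 for GABRB1, −1.07 to 0.74 for GABRG3, −0.18 to 0.15 for GABRR1, −1.10 to 0.21 for GABRR2, −0.95 to 0.26 for GLRA3 and −0.036 to 0.064 for GLRB. Dim signals limit GRIN3A, GABRA4 and GABRG3, whose means lie under a log2 signal of 5. These 3 genes have no value under the filter on dim probe sets.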
